A study of Mus musculus with 12 samples.

Results

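Mouse embryonic stem cells (ESCs) that lack P53 were compared between 2i and serum, over all gene symbols outside small RNA genes (small nucleolar, small nuclear, micro and other short RNAs). These were 23586 of the 24881 symbols of the deposited table, measured in 4 of the 12 samples of the series, the 2 P53-/- 2i and the 2 P53-/- serum libraries. The 2 WT 2i and 2 WT serum libraries of the same table were the comparison, to find which culture differences were also present without P53. All cells were R1 ESCs with the FUCCI system, in which fluorescent proteins come and go with the cell cycle, and cells in G1 phase were sorted before total RNA was extracted, depleted of ribosomal RNA and sequenced. For RNA-seq the study used 2 P53-/- clones of this line made with CRISPR/Cas9, and the sources used here do not say which clone gave which library. 2i is N2B27 medium with PD0325901, CHIR99021 and LIF, and serum medium holds serum and LIF. The libraries of a group are numbered by the order of their columns, and the sources used here do not say whether the WT libraries came from separate cultures, so that p values measure the spread between these libraries, which in WT may be technical.

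PD0325901 inhibits MEK, the kinase that activates ERK, and CHIR99021 inhibits GSK3, the kinase that marks beta-catenin for degradation, so that 2i lowers ERK signalling and raises the WNT pathway. Serum brings growth factors that signal through ERK and through the BMP receptors. ESCs in 2i are described as the ground state of pluripotency, with low DNA methylation and a longer G1 phase. P53 is the transcription factor that halts the cell cycle after DNA damage, in part through Cdkn1a, the gene of the CDK inhibitor P21.

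The genotype and the cell type were checked first. Trp53, the gene of P53, had 7.25 and 1.88 FPKM in 2i and 16.8 and 3.68 in serum of P53-/- ESCs, and 26.8 and 33.7 FPKM in 2i and 77.6 and 75.1 in serum of WT ESCs, so that all 4 P53-/- libraries lay below all 4 WT libraries, with the first library of each P53-/- culture above the second. Between the cultures it was not called in P53-/- ESCs (a log2 difference of −1.06 ± 0.74 (SE), adjusted p = 0.241), but it was called lower in 2i without the first 2i library (−2.01) and without the second serum library (−2.14). Cdkn1a had 3.56 and 4.64 FPKM in 2i and 3.57 and 3.93 in serum of P53-/- ESCs, and 23.9 and 15.9 FPKM in 2i and 16.2 and 18.6 in serum of WT ESCs. The Y-linked genes Ddx3y, Eif2s3y, Uty and Kdm5d were listed at 0 in all 4 P53-/- libraries, although R1 is a male line. In WT, Eif2s3y had 1.66 and 18.3 FPKM in 2i and 8.04 and 8.48 in serum, so that the first WT 2i library was the lowest of the WT libraries. The pluripotency genes Pou5f1 and Nanog were read in all 4 P53-/- libraries, with Pou5f1 at 782 and 735 FPKM in 2i and 473 and 548 in serum. Nanog was at 249 and 261 FPKM in 2i and 329 and 452 in serum. Of 18 fibroblast markers, Col3a1, Postn, Twist2 and Fap were at 0 in the P53-/- libraries, and the sum of the other markers without Fn1 was 3.88 and 6.21 FPKM in 2i and 15.1 and 13.4 in serum, of which Thy1 gave 0.371 and 0.658 FPKM in 2i and 10.5 and 8.65 in serum. The depth was estimated from genes with a single annotated transcript, whose most frequent product of FPKM and transcript length was taken as that of a single fragment. The estimates were 9600000 and 5400000 fragments in P53-/- 2i and 12200000 and 9500000 in P53-/- serum. Small RNA genes took 92.7% and 93.2% of the FPKM sum in P53-/- 2i and 98.8% and 99.1% in P53-/- serum.

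Between 2i and serum, most genes of P53-/- ESCs differed. Values in FPKM, which count fragments relative to transcript length and to the mapped fragments of a library, were compared as log2(FPKM + 0.1) with limma, and a gene was called where the fold change exceeded 1.5 with a Benjamini-Hochberg adjusted p below 0.1. Of the 12369 genes whose mean FPKM over the 8 libraries reached 0.5, 7255 were called in P53-/- ESCs (58.7%), with 3525 higher in 2i (28.5%) and 3730 lower (30.2%). The libraries of the cultures did not overlap for 82.2% of the 12369 genes in P53-/- ESCs and for 82.3% in WT. Among the called genes, 2423 were over 2-fold higher and 2494 over 2-fold lower, and 170 and 59 passed 16-fold. The spread between the libraries of a group had a median SD over genes of 0.143 on the log2 scale in P53-/- 2i and 0.158 in P53-/- serum. The other members were below the filter, and 6045 of the 23586 were at 0 in all 4 P53-/- libraries.

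The culture difference of WT ESCs was largely found in P53-/- ESCs as well. In WT, 6942 genes were called (56.1%), and 5766 of them were called in P53-/- ESCs in the same direction, 2783 higher and 2983 lower in 2i. These shared calls were 83.1% of the WT calls and 79.5% of the P53-/- calls. The contrasts share no library, and over the 12369 genes their log2 differences had a Pearson correlation of 0.89 and a Spearman correlation of 0.89, a description across genes, which are not independent replicates. Of the 1153 genes called in WT alone, 85.8% had the same sign in P53-/- ESCs, and of the 1466 called in P53-/- ESCs alone, 88.3% had the same sign in WT. Called in opposite directions were 23 genes, among which Foxd3 was the one that passed the test of the difference between genotypes. That test, the difference of the P53-/- and the WT culture effects, called 17 of 12369 genes (0.137%), 4 with a more positive culture effect in P53-/- ESCs (0.0323%) and 13 with a more negative one (0.105%), and 1642 genes had an unadjusted p under 0.05. With a library left out, 9 to 49 genes passed, 49 without the first WT 2i library and 48 without the first P53-/- serum library.

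**Figure D1:**
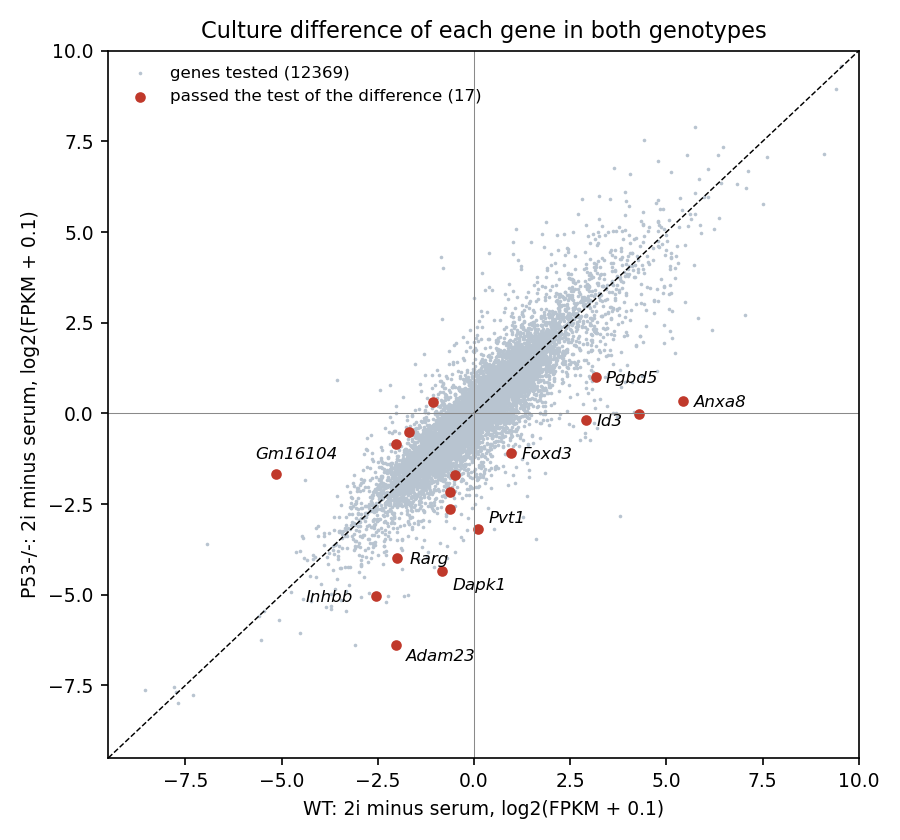
Log2 difference between 2i and serum in WT (x axis) and in P53-/- ESCs (y axis), in log2(FPKM + 0.1), for 12369 genes; the dashed line marks equal differences and red points are the 17 genes that passed the test of the difference. Most genes lie along the line (Pearson correlation 0.89), and 13 of the 17 red points lie below it.

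Transcript length moved with the culture difference in both genotypes. In P53-/- ESCs the median log2 difference was 0.47 for genes whose longest transcript is under 1000 bases, 0.13 from 2000 to under 4000 bases and −0.48 from 4000 bases, and the last value was −0.44 in WT. When the libraries were centred by transcript length, an alternative added after seeing the data, 6767 genes were called in P53-/- ESCs, 3425 higher and 3342 lower. The medians of the chromosomes ran from −0.53 for chromosome 13 to 0.33 for chromosome 6 in P53-/- ESCs, and these chromosomes had medians of −0.61 and 0.36 in WT. The part of length and of chromosomes in single genes was not tested beyond these centrings.

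Gstm2, Bhmt, Tnni1 and Dppa3 were among the 12 largest rises in 2i without P53. Gstm2, a glutathione transferase, had 44.2 and 35.6 FPKM in 2i and 0.181 and 0 in serum, a log2 difference of 7.89 ± 0.43 (SE), adjusted p = 1.78e-05. Bhmt, which remethylates homocysteine, had 30.3 and 22.3 FPKM in 2i and 0.119 and 0.0529 in serum, and the troponin gene Tnni1 had 30.5 and 38.7 FPKM in 2i and 0.179 and 0.119 in serum. Dppa3 (Stella), which protects the maternal genome of the zygote from loss of DNA methylation, was at 397 and 446 FPKM in 2i and 3.54 and 4.07 in serum, a log2 difference of 6.76 ± 0.35 (SE), adjusted p = 1.57e-05. In WT it was at 28.1 and 31.5 FPKM in 2i and 1.44 and 3.66 in serum, and the difference between genotypes of 3.13 ± 0.50 (SE) missed the threshold (adjusted p = 0.101). Kiss1, the gene of kisspeptin, and Slc24a5, a cation exchanger known from pigment cells, had 0 FPKM in each of the P53-/- serum libraries, and 21.4 and 12.4 FPKM and 13.3 and 14.3 FPKM in 2i. The serum libraries of Gstm2, Bhmt, Kiss1 and Slc24a5 were thus at or near 0, and the size of such log2 differences depends on the pseudocount, as for Gstm2 with 5.23 at a pseudocount of 1 and 9.83 at 0.01. The cation channel gene Trpm1 had 12.03 and 20.03 FPKM in 2i and 0 and 0.0362 in serum, and the membrane protein gene Mal had 18.6 and 25.6 FPKM in 2i and 0 and 0.0410 in serum. The calcium-binding protein gene S100a13 had 124 and 96.2 FPKM in 2i and 1.47 and 0.392 in serum, and the X-linked Xlr3c had 28.02 and 21.1 FPKM in 2i and 0 and 0.430 in serum. Oaz1-ps and Hist1h2ap, also among the 12 largest, have near-identical copies elsewhere, and Hist1h2ao showed the opposite pattern, with 0 and 0 FPKM in 2i and 18.8 and 20.96 in serum, so that the split of reads between such copies leaves these symbols uncertain.

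Spry4, Ccnd2 and Myc were among the 12 largest falls. Spry4, an inhibitor of receptor tyrosine kinase signalling that ERK induces, had 0.173 and 0.269 FPKM in 2i and 60.9 and 76.8 in serum, a log2 difference of −7.75 ± 0.27 (SE), adjusted p = 4.91e-06. The cyclin D2 gene Ccnd2 had 0.0348 and 0.0929 FPKM in 2i and 9.52 and 11.8 in serum and the transcription factor gene Myc had 0.349 and 0.464 FPKM in 2i and 26.9 and 21.2 in serum. Both P53-/- 2i libraries were thus below 1 FPKM for each of these genes, while the serum libraries were at 9.52 or above. Spink1, a protease inhibitor, was listed at 0 in 2i and at 17.1 and 19.9 FPKM in serum. The collagen gene Col4a1, the chromatin remodeller gene Smarca1 and Ccdc3 were lower, at log2 differences of −5.38, −5.44 and −5.34. Lars2, the mitochondrial leucyl-tRNA synthetase gene, had 7.19 and 7.62 FPKM in 2i and 1702 and 2116 in serum of P53-/- ESCs and 6.49 and 7.15 FPKM in 2i and 359 and 5718 in serum of WT ESCs. For Rn45s, a ribosomal RNA symbol, the P53-/- 2i libraries held 4584 and 4008 FPKM and the serum libraries 0 and 15289, and its part in the Lars2 value was not tested. Snhg9, a host gene of small nucleolar RNA, also met the rule but had a 2i library at 0 and the other at 22.3 FPKM, and its call was lost without the second 2i library (log2 difference −2.47) and without either serum library (−6.67 and −6.08).

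ERK pathway genes were mostly lower in 2i without P53. Of 25 tested members of a list of 30, 14 were lower and 3 higher, with a median log2 difference of −1.51 beside −0.021 over all genes tested. The median was −0.95 when centred by transcript length and −0.87 with a pseudocount of 1. The counts of this and the other lists stand beside 28.5% higher and 30.2% lower over all genes tested in P53-/- ESCs, and 27.6% and 28.5% in WT. The MAP kinase phosphatase gene Dusp6 had 4.55 and 6.31 FPKM in 2i and 34.6 and 27.6 in serum, a log2 difference of −2.51 ± 0.21 (SE), adjusted p = 5.49e-05. The feedback inhibitor Spry2 had 4.20 and 3.95 FPKM in 2i and 38.03 and 65.6 in serum, and the ETS factor gene Etv4 had 10.3 and 9.16 FPKM in 2i and 60.2 and 50.02 in serum. Egr1, an immediate early gene, had 0.335 and 0.298 FPKM in 2i and 2.46 and 5.29 in serum, a log2 difference of −3.16 ± 0.56 (SE), adjusted p = 0.00183; in WT its log2 difference was −0.52 ± 0.56 (SE), and the difference between genotypes had an adjusted p of 0.242. Other immediate early genes went the other way, with Fos at 7.45 and 7.55 FPKM in 2i and 2.22 and 0.984 in serum and Jun at 2.90 and 3.50 FPKM in 2i and 0.797 and 1.16 in serum, both called. Etv5 had 63.1 and 64.7 FPKM in 2i and 73.8 and 63.9 in serum and was not called (a log2 difference of −0.10 ± 0.12 (SE), adjusted p = 0.464).

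The WNT pathway list was mixed. Of 17 tested members of 25, 5 were higher and 3 lower in P53-/- 2i ESCs, with a median of 0.28. In WT, 7 were higher and 3 lower, with a median of 0.97. The median of the differences between genotypes over these genes was −0.12, and 0 of the 17 passed the test of the difference. Without the first P53-/- serum library 8 of the 17 were higher and the median was 0.53. Sp5, a transcription factor gene that beta-catenin induces, had 9.56 and 13.8 FPKM in 2i and 0.471 and 0.313 in serum, a log2 difference of 4.58 ± 0.55 (SE), adjusted p = 0.00026. The WNT inhibitor gene Apcdd1 had 15.4 and 13.6 FPKM in 2i and 1.22 and 1.72 in serum, Cdx1 had 11.2 and 13.9 FPKM in 2i and 4.62 and 5.11 in serum and the receptor gene Tnfrsf19 had 11.5 and 12.8 FPKM in 2i and 2.38 and 3.12 in serum, all called. The mesoderm factor T (Brachyury) rose from 0 and 0.161 FPKM in serum to 0.878 and 1.38 in 2i, still at a low level. Axin2, a widely used readout of the pathway, had 5.29 and 3.64 FPKM in 2i and 4.30 and 3.01 in serum and was not called (a log2 difference of 0.28 ± 0.27 (SE), adjusted p = 0.39); in WT it was called, with a log2 difference of 1.06 ± 0.27 (SE), and the genotypes did not pass the test of the difference (adjusted p = 0.429). Of the LIF pathway list, 6 of 15 were lower and 2 higher, with the feedback inhibitor Socs3 at 34.8 and 30.5 FPKM in 2i and 58.4 and 57.7 in serum and the receptor Lifr at 15.2 and 16.9 FPKM in 2i and 38.9 and 37.7 in serum. Centred by transcript length, the LIF list had 4 higher and 3 lower, and Lifr had a log2 difference of −0.24 and was not called.

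The promoters of the called WNT genes Sp5 and Tnfrsf19 hold the letters CTTTGATC, the core that TCF factors bind. The windows are RefSeq promoters of 300 bases (250 before to 50 after the start, build GRCm38.p6), and 18 of the 25 list genes had one. Both strands were searched, and 2 of these 18 genes held the letters, as did 1.09% of the 27025 symbols with a window. Among tested genes with a window they stood in 0.996% of those called higher in P53-/- 2i ESCs, 0.795% of those called lower and 0.591% of those not called. The stretches below run 5′ to 3′ along the gene, with the motif on either strand in capitals, for Sp5 from chr2:70474773-70474872 (plus strand) and for Tnfrsf19 from chr14:61038137-61038236 (minus strand).
Sp5: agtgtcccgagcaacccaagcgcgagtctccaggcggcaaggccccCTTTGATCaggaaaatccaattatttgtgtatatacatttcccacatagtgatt
Tnfrsf19: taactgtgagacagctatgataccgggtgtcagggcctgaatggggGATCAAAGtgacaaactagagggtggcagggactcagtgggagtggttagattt
A match is a description of the sequence and not evidence that a factor binds there.

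In the BMP pathway, 5 of 17 tested members were higher and 8 lower in P53-/- 2i ESCs, with a median of −0.17, and of −0.61 when centred by transcript length. With a P53-/- library left out the median ran from −0.35 (without the second 2i library) to −0.017 (without the second serum library). The share higher was near the 28.5% over all genes. The ligand gene Bmp4 had 2.26 and 3.92 FPKM in 2i and 41.8 and 55.7 in serum, a log2 difference of −3.97 ± 0.25 (SE), adjusted p = 2.59e-05, whereas the ligand gene Bmp7 had 4.25 and 3.96 FPKM in 2i and 0.493 and 0.398 in serum. Among the ID genes, which encode inhibitors of basic helix-loop-helix factors, Id1 fell and Id4 rose in 2i. Id1 had 7.64 and 8.85 FPKM in 2i and 76.1 and 78.9 in serum, and Id4 had 15.9 and 17.96 FPKM in 2i and 2.30 and 2.58 in serum. Id2 had 9.70 and 7.89 FPKM in 2i and 8.17 and 11.3 in serum, and Id3 had 19.8 and 25.3 FPKM in 2i and 24.5 and 25.9 in serum, and the libraries of both cultures overlapped for these genes. Neither was called, but Id3 was called lower when centred by transcript length (−0.61). In WT, Id3 had 179 and 129 FPKM in 2i and 19.9 and 20.4 in serum, so that the high level of the WT 2i libraries was absent from both P53-/- 2i libraries (difference between genotypes −3.08 ± 0.26 (SE), adjusted p = 0.00313). The homeobox gene Msx1 was higher in 2i, with a log2 difference of 3.25, and the inhibitor gene Smad7 was lower, at −1.34. Of 15 Nodal pathway genes, 4 were higher and 6 lower, beside 28.5% and 30.2% over all genes. The Nodal antagonist gene Lefty1 was among the higher, at 12.3 and 6.38 FPKM in 2i and 2.89 and 3.70 in serum. Lefty2 was at 44.8 and 24.5 FPKM in 2i and 10.7 and 18.2 in serum, so that both P53-/- 2i libraries lay above both P53-/- serum libraries for each gene. The call of Lefty2 was lost without the first P53-/- 2i library, at a log2 difference of 0.81, and without the first P53-/- serum library, at 0.86.

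**Figure D2:**
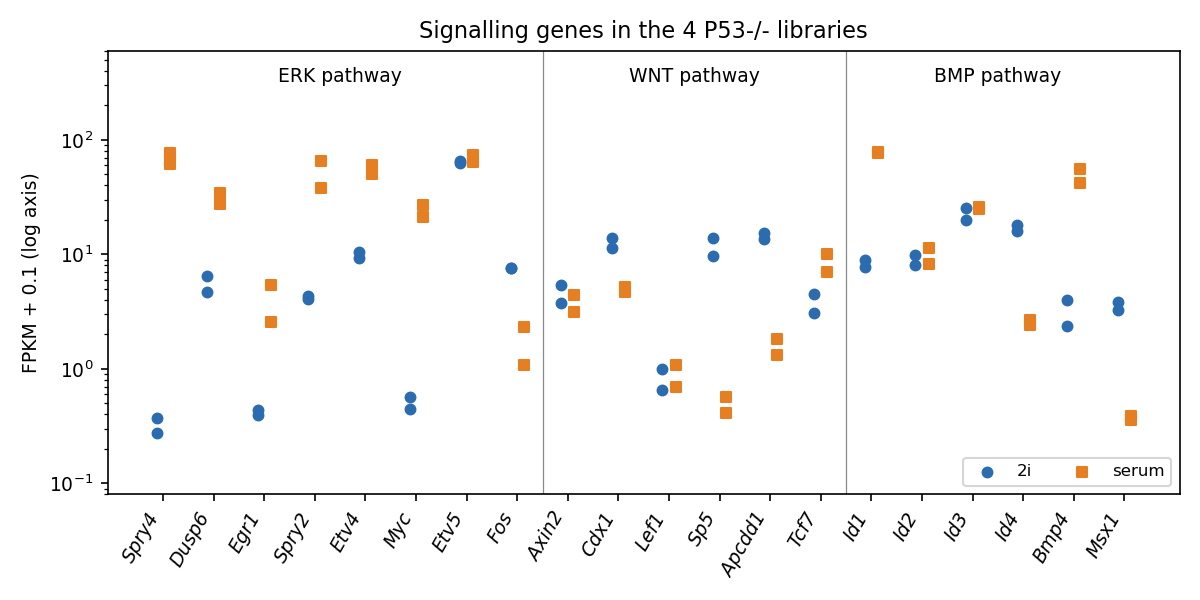
FPKM + 0.1 (log axis) of ERK, WNT and BMP pathway genes in the 2 P53-/- 2i libraries (blue circles) and the 2 P53-/- serum libraries (orange squares). Spry4, Myc and Id1 lie far lower in 2i, Sp5, Apcdd1 and Id4 far higher, and the libraries of both cultures meet for Etv5, Axin2, Lef1, Id2 and Id3.

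Genes of the core pluripotency network were mostly lower in 2i. Of 15 members, 13 were lower, and 1 was called higher, the growth factor gene Fgf4, at a log2 difference of 0.62. Its call was lost without the first P53-/- 2i library (0.47), without the first P53-/- serum library (0.42) and under both centrings (0.53 by transcript length and 0.51 on chromosome medians). Pou5f1 was higher in 2i by 0.57 on the log2 scale, below the fold threshold. Nanog, the homeobox factor, gave a log2 difference of −0.60 ± 0.17 (SE), adjusted p = 0.0178, while its log2 difference was 0.021 ± 0.17 (SE) in WT; the test of the difference did not pass (adjusted p = 0.347). Without the second P53-/- serum library the Nanog value was −0.37 and not called. Sox2 had 124 and 147 FPKM in 2i and 199 and 221 in serum, a log2 difference of −0.63 ± 0.22 (SE), adjusted p = 0.0365, and −0.55 and not called without the same library. Without the first P53-/- 2i library the values were −0.56 for Nanog and −0.51 for Sox2, also not called. The RNA-binding protein gene Lin28a had 6.67 and 3.76 FPKM in 2i and 106 and 87.0 in serum, a log2 difference of −4.23 ± 0.25 (SE), adjusted p = 2.05e-05. Utf1 had 6.02 and 4.81 FPKM in 2i and 46.3 and 55.6 in serum and L1td1 had 46.6 and 46.3 FPKM in 2i and 380.2 and 342 in serum. Of these genes both P53-/- 2i libraries lay below both serum libraries.

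The naive pluripotency genes divided evenly, with 7 higher and 7 lower of 19 tested. Besides Dppa3, Prdm14, which represses DNA methyltransferase genes, was higher, at 26.1 and 24.3 FPKM in 2i and 10.98 and 12.05 in serum, and so were Fbxo15, Tcl1 and the threonine dehydrogenase gene Tdh, by 1.72, 1.70 and 1.08 on the log2 scale. Klf4 was lower, at 23.2 and 26.3 FPKM in 2i and 47.7 and 57.7 in serum, a log2 difference of −1.08 ± 0.13 (SE), adjusted p = 0.000278; in WT the log2 difference was 0.050 ± 0.13 (SE), and the difference between genotypes of −1.13 missed the threshold (adjusted p = 0.102). The factor genes Klf5, Tbx3, Nr5a2 and Gbx2 were lower too, at log2 differences of −1.64, −1.70, −1.22 and −3.12. Esrrb had a log2 difference of −0.51 and was not called, but passed without the first P53-/- 2i library (−0.59). Of 13 formative and primed genes, 9 were lower, with Sox11 at 0.141 and 0.168 FPKM in 2i and 4.88 and 6.33 in serum and Sox4 at 0.951 and 1.58 FPKM in 2i and 13.6 and 17.9 in serum, and 1 was higher, the transcription factor gene Tead2, by 0.96. The marker of primed cells Fgf5 was at or under 0.1 FPKM in all 4 P53-/- libraries and was not tested.

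Genes of the DNA methylation machinery were mostly lower in 2i where they were called. Of 18 members 10 were lower and 2 higher, with a median of −0.93. The de novo methyltransferase gene Dnmt3a had 2.07 and 2.40 FPKM in 2i and 24.2 and 29.02 in serum, Dnmt3b had 6.29 and 5.33 FPKM in 2i and 31.7 and 29.4 in serum, and their cofactor Dnmt3l had 3.95 and 2.76 FPKM in 2i and 58.2 and 54.3 in serum. Tet1, which oxidises methylcytosine, had 11.6 and 11.4 FPKM in 2i and 95.0 and 79.9 in serum, a log2 difference of −2.91 ± 0.17 (SE), adjusted p = 1.99e-05. For these genes both P53-/- 2i libraries lay below both serum libraries. The maintenance methyltransferase Dnmt1 had 46.2 and 47.9 FPKM in 2i and 57.4 and 36.6 in serum and was not called, except as higher when centred by transcript length (0.59), while its partner Uhrf1 was higher, at 266 and 205 FPKM in 2i and 104 and 96.0 in serum; in WT the log2 difference of Uhrf1 was 0.42 ± 0.15 (SE) and not called, and the genotypes did not pass the test of the difference (adjusted p = 0.201). Germline genes, several of which are silenced by DNA methylation, were mixed: 12 of 31 were higher and 8 lower, beside 28.5% and 30.2% over all genes. Dazl had 43.1 and 55.4 FPKM in 2i and 4.25 and 12.8 in serum and Fkbp6 had 97.4 and 128 FPKM in 2i and 8.34 and 7.53 in serum, whereas Ddx4 had 2.25 and 2.90 FPKM in 2i and 21.5 and 19.6 in serum and Mael had 0.983 and 0.871 FPKM in 2i and 8.16 and 13.1 in serum. In WT, 16 germline genes were higher and 3 lower, with a median of 0.84 beside 0.30 in P53-/- ESCs. The median of the differences between genotypes over these genes was −0.65, beside 0.0096 over all genes tested. None of the 31 passed the test of the difference. Of 23 imprinted genes, 10 were lower, among them H19 (0.183 and 0.325 FPKM in 2i and 2.85 and 4.26 in serum), Peg10 (6.56 and 6.44 FPKM in 2i and 125 and 142 in serum) and the noncoding Kcnq1ot1 (0.503 and 0.613 FPKM in 2i and 8.29 and 8.82 in serum), and 6 were higher, with Dio3 at 6.04 and 7.99 FPKM in 2i and 0.626 and 1.13 in serum. The median of the imprinted genes was −0.70, and 0.26 when values were centred by transcript length. It was −0.29 without the second P53-/- 2i library, −0.38 without the second P53-/- serum library and −0.27 with a pseudocount of 1.

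Hox genes were read at higher levels in 2i. Over all 38 Hox symbols of the list, both P53-/- 2i libraries lay above both serum libraries for 29, below them for 1 (Hoxb3, at 0 in 2i and at or under 0.0478 FPKM in serum), and 2 (Hoxb5 and Hoxb8) were at 0 throughout. Over all symbols of the table, 6153 of 23586 had both P53-/- 2i libraries above both serum libraries and 6326 below. The levels were low: 15 of the 38 passed the filter, which favours genes that are high in a group, and 14 of these were called higher, and 24 when no filter was set. Hoxa10 had 7.05 and 15.6 FPKM in 2i and 0.266 and 0.454 in serum, Hoxd8 had 5.59 and 5.79 FPKM in 2i and 0.253 and 0.161 in serum and Hoxb13 had 8.605 and 4.99 FPKM in 2i and 0.703 and 0.0850 in serum, a log2 difference of 4.11 ± 0.78 (SE), adjusted p = 0.00256. Genes of the polycomb complexes, which repress Hox genes in ESCs, were lower for 15 of 32 and higher for 6. The methyltransferase gene Ezh2 had 40.2 and 34.6 FPKM in 2i and 102 and 110.1 in serum, its partner Eed had 85.4 and 80.2 FPKM in 2i and 213 and 275 in serum, and the cofactor Jarid2 had 14.9 and 15.5 FPKM in 2i and 118 and 127 in serum, a log2 difference of −3.003 ± 0.11 (SE), adjusted p = 4.91e-06. The chromobox gene Cbx8 was higher, by 2.68 on the log2 scale. Centred by transcript length, 10 polycomb genes were lower, a share near the 30.2% over all genes.

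**Figure D3:**
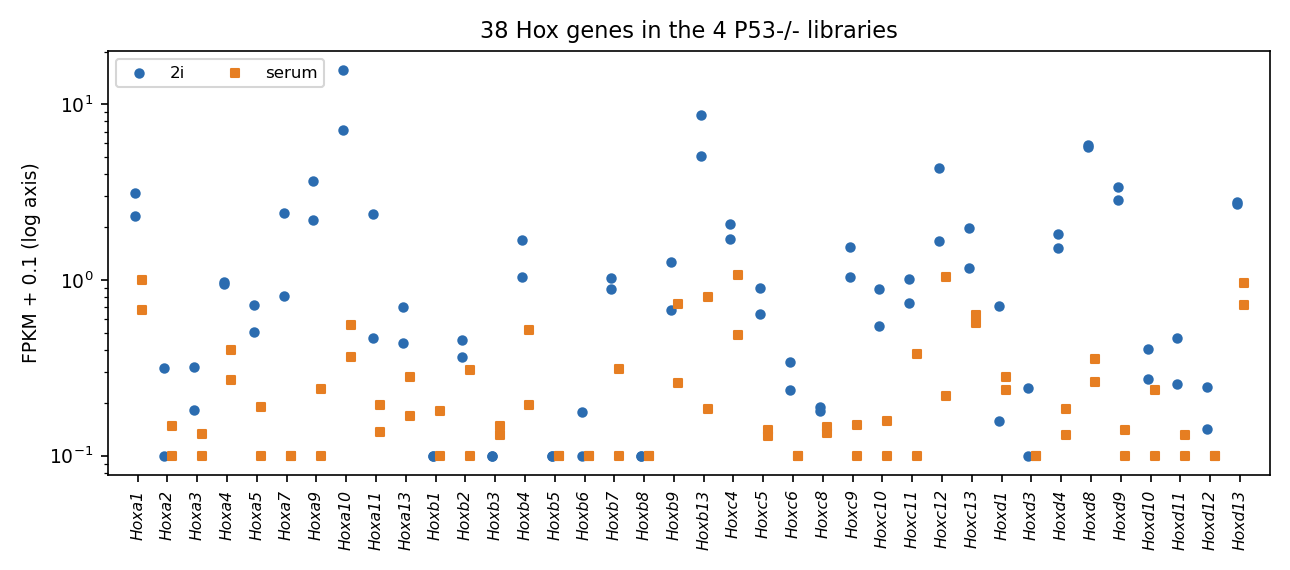
FPKM + 0.1 (log axis) of 38 Hox genes in the 2 P53-/- 2i libraries (blue circles) and the 2 P53-/- serum libraries (orange squares), with genes at 0 drawn at 0.1. Both 2i points lie above both serum points for 29 genes.

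Many genes of serine metabolism and of the ATF4 response, the programme that cells switch on when amino acids are short, were higher in 2i. Of 28 members 18 were higher and 0 lower, with a median of 1.13, and in WT 16 were higher and 0 lower. Atf4 itself had 294 and 272 FPKM in 2i and 152 and 101.1 in serum, a log2 difference of 1.19 ± 0.20 (SE), adjusted p = 0.00136. The asparagine synthetase gene Asns had 865 and 777 FPKM in 2i and 304 and 215 in serum, a log2 difference of 1.68 ± 0.21 (SE), adjusted p = 0.000297. Ddit3 (CHOP), a stress-induced partner of ATF4, had 77.6 and 49.03 FPKM in 2i and 5.66 and 2.53 in serum, and Atf3 had 11.1 and 9.71 FPKM in 2i and 1.30 and 1.39 in serum. The stress protein gene Nupr1 had 169 and 111 FPKM in 2i and 25.7 and 14.6 in serum and the glutathione-degrading enzyme gene Chac1 had 22.2 and 18.002 FPKM in 2i and 7.80 and 7.46 in serum. Ddit4, an inhibitor of mTOR signalling, had 24.8 and 22.4 FPKM in 2i and 4.37 and 4.01 in serum. The libraries of the cultures did not overlap for any of these genes, with 2i above serum. Phgdh and Psph, enzymes of serine synthesis, were higher by 1.08 and 0.94, and Psat1 had 482 and 469.5 FPKM in 2i and 359 and 302 in serum, under the fold threshold but past it without the first serum library (0.66).

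Of the 28 genes, 23 had a RefSeq promoter window, and 7 of these held TGATGNAA, the core of the element that ATF4 binds, on either strand: Asns, Atf3, Chac1, Trib3, Slc7a11, Nupr1 and Vldlr, which were all called higher in 2i. Atf4, Ddit3, Ddit4, Phgdh and Psph had a window without the letters and were higher in 2i too. The letters stood in 4.51% of the 27025 symbols with a window. Over all tested genes with a window, they stood in 3.17% of the 2811 called higher in P53-/- 2i ESCs, 2.7% of the 2893 called lower and 2.12% of the 4061 not called. Stretches before the start of 4 called genes show where the letters lie, 5′ to 3′ along the gene with the motif in capitals, from chr6:7693210-7693278, chr1:191183390-191183489 and chr7:126625527-126625626 (minus strand) and chr2:119351003-119351102 (plus strand) of GRCm38.p6.
Asns: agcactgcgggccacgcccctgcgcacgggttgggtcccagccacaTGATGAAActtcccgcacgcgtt
Atf3: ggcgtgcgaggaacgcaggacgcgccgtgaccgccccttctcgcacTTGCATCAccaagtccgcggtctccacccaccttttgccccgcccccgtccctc
Chac1: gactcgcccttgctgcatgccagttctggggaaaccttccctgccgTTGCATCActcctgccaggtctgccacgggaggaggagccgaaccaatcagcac
Nupr1: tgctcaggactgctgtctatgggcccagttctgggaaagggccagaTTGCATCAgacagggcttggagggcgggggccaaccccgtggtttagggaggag
The first base of the motif lay 23 bases before the start in Asns, 110 in Atf3, 193 in Chac1 and 110 in Nupr1. In Asns the letters read forward, and in Atf3, Chac1 and Nupr1 they read on the other strand. Here too a match describes the sequence and is not evidence that ATF4 binds there.

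Sterol and lipid synthesis was higher in 2i as well, for 21 of 35 tested genes, with 3 lower and a median of 1.09. Insig1, the sterol sensor partner, had 138 and 157 FPKM in 2i and 32.6 and 32.5 in serum, a log2 difference of 2.17 ± 0.22 (SE), adjusted p = 0.000116, and the mevalonate kinase gene Mvk had 31.01 and 28.6 FPKM in 2i and 7.77 and 5.41 in serum. The acetyl-CoA synthetase gene Acss2 had 15.8 and 15.7 FPKM in 2i and 1.61 and 2.62 in serum and Tm7sf2, a sterol reductase gene, had 18.2 and 13.9 FPKM in 2i and 2.28 and 1.86 in serum. The 2i libraries of these genes lay above the serum libraries. The lipid transfer gene Stard4, the fatty acid elongase gene Elovl6 and Ggps1, a prenyl synthase gene, were lower, at log2 differences of −0.78, −0.92 and −0.93. These calls depended on the scaling, and 1 of the list was lower under either centring. Centred by transcript length, Stard4 had −0.38 and Elovl6 −0.37, and on chromosome medians Stard4 had −0.29 and Ggps1 −0.43, all not called. Of 28 genes of glycolysis and the hypoxia response, 12 were higher and 6 lower, and members moved in both directions. The glucose transporter Slc2a1 had 90.8 and 81.3 FPKM in 2i and 202 and 203 in serum and the kinase gene Pdk1 had 14.03 and 13.2 FPKM in 2i and 55.8 and 68.5 in serum, while the aldolase gene Aldoc had 14.1 and 11.5 FPKM in 2i and 1.47 and 1.16 in serum. For iron storage, the ferritin light chain gene Ftl1 had 923 and 879.6 FPKM in 2i and 153 and 242 in serum, which can share reads with pseudogene copies, and the heavy chain gene Fth1 had 108 and 114 FPKM in 2i and 219 and 211 in serum.

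Cytoskeletal genes and targets of SRF and YAP, factors that respond to actin and cell shape, were higher for 13 of 25 tested members of 36 and lower for 2. The YAP target Ctgf had 16.7 and 18.5 FPKM in 2i and 4.06 and 3.86 in serum. Cyr61, another YAP target, had 6.21 and 11.3 FPKM in 2i and 3.34 and 1.79 in serum, with more spread between its libraries. The keratin gene Krt8 had 43.3 and 42.9 FPKM in 2i and 4.88 and 1.91 in serum, a log2 difference of 3.77 ± 0.44 (SE), adjusted p = 0.000234, and the annexin gene Anxa2 had 63.9 and 85.0 FPKM in 2i and 7.77 and 6.18 in serum. The tropomyosin genes Tpm1 and Tpm4 were higher, by 1.62 and 1.83. Among adhesion genes, the claudin gene Cldn4 had 151 and 155 FPKM in 2i and 15.3 and 10.1 in serum, and the integrin gene Itga5 had 2.48 and 2.003 FPKM in 2i and 14.2 and 16.9 in serum.

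**Figure D4:**
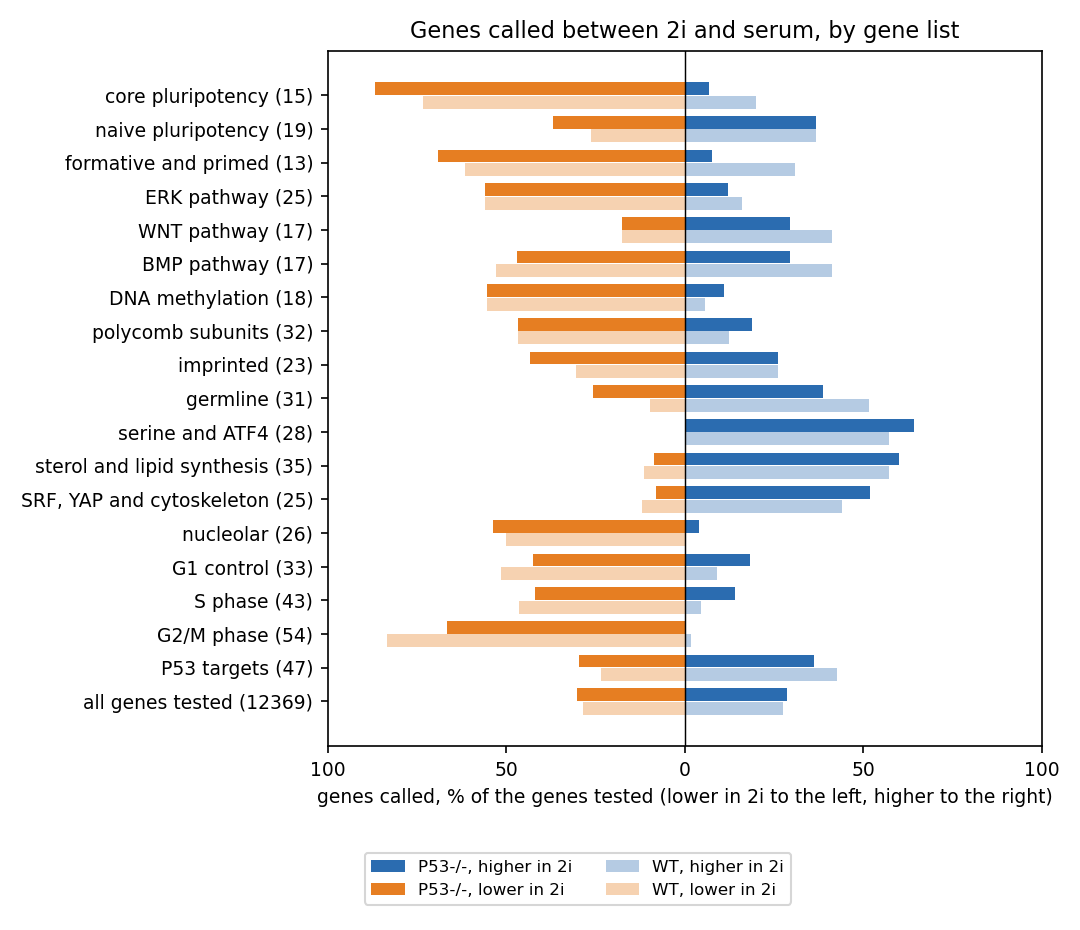
Share of the tested genes of each list (number tested in parentheses) that were called higher in 2i (blue bars to the right) or lower (orange bars to the left), in P53-/- ESCs (full colour) and in WT (pale). In P53-/- ESCs the shares over all genes tested were 28.5% higher and 30.2% lower, the serine and ATF4 list has no gene lower, and the G2/M list has none higher.

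The cell cycle genes that were called in these G1-sorted cells were mostly lower in 2i. Of 33 genes of G1 control, 14 were lower and 6 higher in P53-/- ESCs. The cyclin E gene Ccne1 had 65.3 and 48.9 FPKM in 2i and 153 and 173 in serum. Its paralog Ccne2 had 17.3 and 26.1 FPKM in 2i and 61.0 and 63.2 in serum, and the repressor E2f8 had 1.02 and 1.13 FPKM in 2i and 15.02 and 15.6 in serum. These genes of the G1 to S transition were thus lower in both 2i libraries. Cdkn2b and Cdkn2c, which encode inhibitors of CDK4 and CDK6, were higher in 2i. Cdkn2b had 3.31 and 2.79 FPKM in 2i and 0.752 and 0.416 in serum, and Cdkn2c had 4.75 and 7.60 FPKM in 2i and 0.749 and 1.98 in serum. Cdkn1a, the P21 gene, did not differ detectably between the cultures in P53-/- ESCs (a log2 difference of 0.11 ± 0.22 (SE), adjusted p = 0.678). Its WT log2 difference was 0.17 ± 0.22 (SE) (adjusted p = 0.536). Cdkn1b, the P27 gene, had 22.5 and 23.5 FPKM in 2i and 18.7 and 17.7 in serum, a log2 difference of 0.34 ± 0.12 (SE) under the fold threshold. Of the pocket protein genes, which restrain E2F factors, Rbl1 was called higher and Rb1 and Rbl2 were not called. Rbl1 had 9.57 and 8.89 FPKM in 2i and 5.52 and 6.15 in serum, and its call was lost without the first serum library (0.58) and with a pseudocount of 1 (0.58). Rb1 had 0.391 and 0.927 FPKM in 2i and 0.650 and 1.08 in serum, and Rbl2 had 1.24 and 1.57 FPKM in 2i and 1.45 and 1.15 in serum. In P53-/- ESCs Rb1 was called lower without the second 2i library (−0.94). Rb1 was called lower in WT 2i, at a log2 difference of −1.005, and the test of its difference between genotypes gave an adjusted p of 0.701.

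Of 43 S phase genes, 18 were lower and 6 higher, and of 54 G2/M genes 36 were lower and 0 higher, with a median of −0.91 for G2/M, beside 30.2% lower and 28.5% higher over all genes. Centred by transcript length, 13 S phase genes were lower, a share near that over all genes, and 33 G2/M genes. Mki67, a marker of proliferating cells, had 7.23 and 6.21 FPKM in 2i and 38.6 and 45.1 in serum, a log2 difference of −2.62 ± 0.17 (SE), adjusted p = 2.5e-05. The kinetochore gene Cenpf had 4.18 and 3.54 FPKM in 2i and 39.1 and 42.6 in serum, and Cenpe had 4.72 and 4.14 FPKM in 2i and 32.3 and 28.1 in serum, each lower in both 2i libraries. The helicase subunit gene Mcm5 and the replication factor gene Cdc45 were higher, by 0.86 and 1.13. In WT, 45 G2/M genes were lower and 1 higher, with a median of −1.27. The difference of the culture effects had a median of 0.34 over the G2/M genes, beside 0.0096 over all genes tested, and none of the 54 passed its test. Replication-dependent histone genes, a list added after the values were seen, were lower for 46 of 65 and higher for 2. Nucleolar genes were lower for 14 of 26, with nucleolin, Ncl, at 38.7 and 33.6 FPKM in 2i and 377 and 351 in serum and nucleophosmin, Npm1, at 1604 and 1064 FPKM in 2i and 2777 and 2983 in serum; centred by transcript length, 9 were lower, and Npm1 lost its call with quantile normalization (−0.72). Ribosomal protein genes, also added after the values were seen, were higher for 45 of 76 and lower for 4, and for 33 and 7 when centred by transcript length. Their transcripts are short and have many pseudogene copies.

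Known target genes of P53 were called in both directions in 2i without P53. Of 47 tested members of 49, 17 were higher and 14 lower in P53-/- 2i ESCs, beside 28.5% and 30.2% over all genes, so that the share lower was near that over all genes, and the median was 0.042, between −0.038 and 0.14 with a P53-/- library left out. The kinase gene Plk2 had 10.3 and 14.2 FPKM in 2i and 0.544 and 0.152 in serum, a log2 difference of 4.92 ± 0.41 (SE), adjusted p = 5.75e-05. Dcxr, a sugar reductase gene, had 5.93 and 4.71 FPKM in 2i and 0.193 and 0.0650 in serum, and the growth factor gene Gdf15 had 15.6 and 9.49 FPKM in 2i and 1.17 and 0.592 in serum. These targets were higher in both P53-/- 2i libraries than in both serum libraries. The DNA repair gene Ddb2 was higher as well, at 14.97 and 14.6 FPKM in 2i and 3.39 and 2.38 in serum, and so was Phlda3, an inhibitor of AKT, at 6.77 and 8.31 FPKM in 2i and 0.943 and 2.04 in serum. Mdm2, the ubiquitin ligase that degrades P53, was lower, at 12.8 and 12.3 FPKM in 2i and 21.8 and 19.8 in serum, and so was the RNA-binding protein gene Zmat3, at 0.680 and 0.685 FPKM in 2i and 4.08 and 4.36 in serum. Of the apoptosis genes, Pmaip1 was lower, at a log2 difference of −1.79. In WT, 20 of the 47 were higher and 11 lower, with a median of 0.54, and the median of the differences between genotypes over these genes was −0.10. One member, the noncoding Pvt1, passed the test of the difference.

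The 17 genes that passed the test of the difference had culture effects that differed between the genotypes in these libraries, and their number depended on the settings. The Y-linked gene Eif2s3y was at 0 in every P53-/- library and read in every WT library. Loss of P53 and other differences between the P53-/- and WT cells therefore cannot be told apart. Adam23, a disintegrin family gene of cell adhesion, had 0.0962 and 0.0856 FPKM in 2i and 14.8 and 16.9 in serum of P53-/- ESCs, and 6.52 and 5.69 FPKM in 2i and 24.6 and 26.1 in serum of WT ESCs. It was lower in 2i in both genotypes, at log2 differences of −6.38 and −2.04, and both P53-/- 2i libraries lay below 0.1 FPKM. Pvt1 had 0.527 and 0.558 FPKM in 2i and 6.50 and 5.09 in serum of P53-/- ESCs, and 12.6 and 11.3 FPKM in 2i and 10.7 and 11.3 in serum of WT ESCs, so that the low values were those of P53-/- 2i. The death-associated kinase gene Dapk1 had 0.205 and 0.135 FPKM in 2i and 5.14 and 5.62 in serum of P53-/- ESCs, and 3.84 and 5.77 FPKM in 2i and 8.17 and 8.73 in serum of WT ESCs, so that it was lowest in P53-/- 2i, and in WT too the 2i libraries lay below the serum libraries. For the retinoic acid receptor gene Rarg the values were 2.22 and 2.92 FPKM in 2i and 38.8 and 45.6 in serum in P53-/- ESCs, and 8.64 and 8.79 FPKM in 2i and 36.6 and 34.3 in serum in WT. The activin subunit gene Inhbb had 1.88 and 1.57 FPKM in 2i and 52.1 and 68.4 in serum of P53-/- ESCs, and 6.22 and 8.72 FPKM in 2i and 41.6 and 45.4 in serum of WT ESCs, a larger fall without P53. The repressor gene Foxd3 went in opposite directions, with 6.70 and 6.96 FPKM in 2i and 11.9 and 18.1 in serum of P53-/- ESCs, and 17.4 and 18.1 FPKM in 2i and 8.71 and 9.49 in serum of WT ESCs.

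Anxa8, an annexin gene, was high in WT 2i alone, at 14.9 and 18.5 FPKM in 2i and 0.457 and 0.164 in serum, and had 0.0593 and 0 FPKM in 2i and 0 and 0 in serum of P53-/- ESCs. Among the 4 genes whose culture effect was more positive without P53, the cyclin A2 gene Ccna2 had 61.5 and 59.2 FPKM in 2i and 88.0 and 85.8 in serum of P53-/- ESCs, and 28.8 and 30.4 FPKM in 2i and 96.9 and 94.0 in serum of WT ESCs. Its log2 difference was −0.53 without P53, under the fold threshold but past it when centred by transcript length (−0.66), and −1.69 in WT. The histone methyltransferase gene Nsd2 had 12.1 and 11.9 FPKM in 2i and 21.7 and 21.95 in serum of P53-/- ESCs, and 4.48 and 5.17 FPKM in 2i and 19.9 and 20.02 in serum of WT ESCs. The RNA-binding protein gene Pcbp4 had 29.4 and 22.7 FPKM in 2i and 21.6 and 19.6 in serum of P53-/- ESCs, and 9.04 and 8.54 FPKM in 2i and 19.09 and 18.03 in serum of WT ESCs. For these genes the P53-/- 2i libraries lay above the WT 2i libraries, while the serum libraries of the genotypes were close. Of the genes called in WT and not in P53-/- ESCs, Anxa8, Id3, Ccna2 and Pcbp4 were those that passed the test of the difference with a mean FPKM of at least 1.

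**Figure D5:**
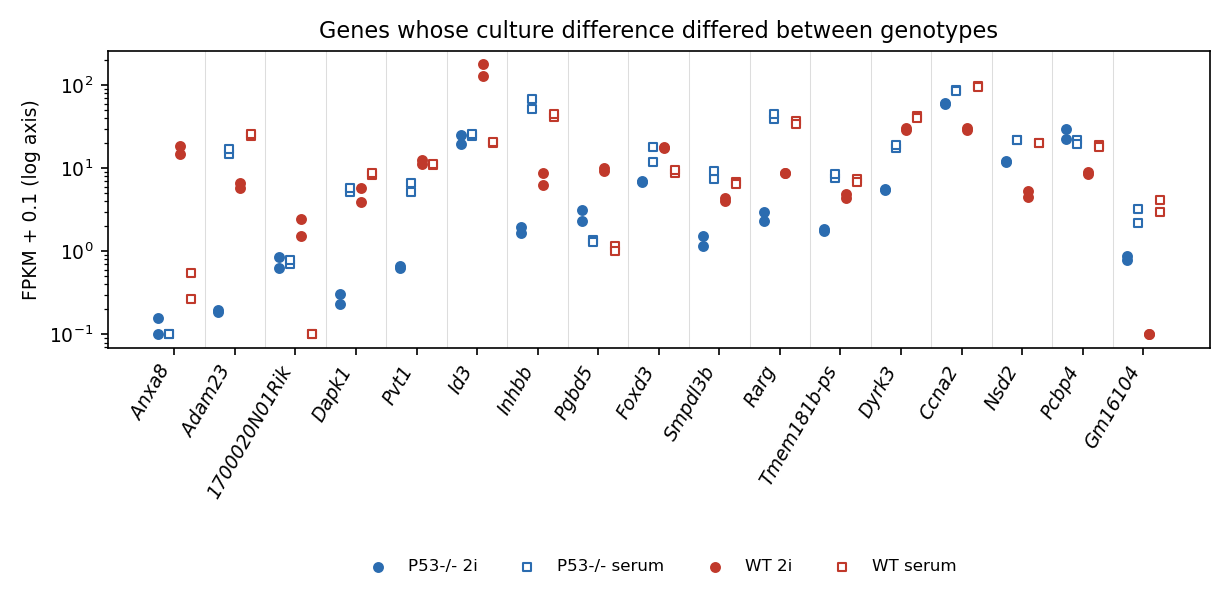
FPKM + 0.1 (log axis) in all 8 libraries for the 17 genes that passed the test of the difference, ordered by it, with P53-/- in blue and WT in red, 2i as filled circles and serum as open squares. For 13 genes the culture effect is more negative in P53-/- ESCs, and for Ccna2, Nsd2, Pcbp4 and Gm16104 more positive.

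Markers of other cell states were read as well. Of 7 tested genes of the 2-cell-like state, a rare state of ESC cultures, 2 were called higher, Tcstv1 and Tcstv3, and 0 when the P53-/- libraries were fitted alone, with an adjusted p of 0.11 by limma for Tcstv3. The genes of this state were high in the second library of each P53-/- culture, with Zscan4d at 0.798 and 7.08 FPKM in 2i and 0.250 and 4.31 in serum and Tcstv3 at 1.35 and 17.6 FPKM in 2i and 0 and 1.04 in serum, and the 15 markers summed to 7.02 and 65.5 FPKM in 2i and 0.989 and 16.1 in serum. Without the second P53-/- 2i library 0 of 5 tested genes were called, and without the first serum library 0 of 7, with Tcstv3 at 2.10 and 2.16 on the log2 scale, and without the first 2i or the second serum library 5 were called. In bulk RNA, fewer cells of a type and less RNA per cell cannot be told apart. Of 13 tested primitive endoderm genes 5 were higher and 5 lower, with the factor gene Gata4 at 0.812 and 1.12 FPKM in 2i and 0.162 and 0.246 in serum and the laminin gene Lamb1 at 2.33 and 4.02 FPKM in 2i and 21.4 and 15.6 in serum. Without the second 2i or the second serum library 3 of the 13 were higher. Of 9 neural genes 6 were lower, with Nnat at 0.0964 and 0.171 FPKM in 2i and 3.10 and 5.24 in serum, and 1 was higher, the transcription factor gene Sox21, by 2.46. The mesendoderm factor gene Gsc had 6.23 and 9.83 FPKM in 2i and 0.0769 and 0.205 in serum, a log2 difference of 5.09 ± 0.39 (SE), adjusted p = 4.31e-05, and the growth factor gene Fgf17 had 0.446 and 0.923 FPKM in 2i and 7.25 and 14.7 in serum.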

How the data were processed

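RNA-seq of G1-sorted ESCs was used as the authors deposited it, as a table of FPKM values per gene symbol and library, with no further scaling. Per the labels, RNA was reverse-transcribed with random primers into stranded libraries, and the submitters' processing notes name STAR, Cufflinks, DESeq2 and mm9, without roles or versions. The 4 libraries of P21-/- ESCs and their WT controls were not analysed here. Small RNA genes (1295 symbols) were recognised by name and by their type in GENCODE M21 and RefSeq, and 24425 symbols matched GENCODE M21, which gave transcript lengths and chromosomes. Genes whose mean FPKM over 8 libraries reached 0.5 (12572, of which 12369 outside small RNA genes) were fitted with limma 3.58.1 (R 4.3.3) on log2(FPKM + 0.1), 1 mean per group, eBayes with a trend and 4 residual degrees of freedom. Fold changes on this scale understate those of low genes. FPKM hold no counts, so that no count model was used and depth was only estimated. With 2 libraries against 2, the smallest exact permutation p for a gene is 0.33. The fit was also run on simulated data in which most genes had the same mean in every group. Most genes of these data differed between the cultures, so that this run does not show how the fit performs on them.

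The members and gene lists were chosen with earlier results of these data known, and support nothing independently. Named genes came from these sets: Trp53 and Cdkn1a, the 12 largest called rises and falls with a mean FPKM of at least 5 and separate libraries, the 10 largest differences between genotypes in each direction, up to 5 genes in each direction called in WT alone that passed the test of that difference, and of each list the first 3 tested and the 2 largest calls in each direction; other list members were named after their values were seen, and some genes of the lists are not reported here. Python 3.11.15, pandas 2.3.3 and matplotlib 3.10.9 made tables and plots.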

Additional observations from a re-analysis of the deposited data

Results flagged for a closer look

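The culture effect differed between the genotypes for 17 genes by limma's test of the difference. The values are log2 differences of the culture effect, P53-/- minus WT, each from 2 libraries a group, with SE between 0.15 and 0.76. The culture effect was more negative in P53-/- ESCs for Anxa8 at −5.11 (adjusted p = 0.0947), Adam23 at −4.34 (adjusted p = 0.000317), 1700020N01Rik at −4.31 (adjusted p = 0.0947), Dapk1 at −3.53 (adjusted p = 0.0109), Pvt1 at −3.30 (adjusted p = 0.00178), Id3 at −3.08 (adjusted p = 0.00313) and Inhbb at −2.49 (adjusted p = 0.0263). It was also more negative for Pgbd5 at −2.15 (adjusted p = 0.0947), Foxd3 at −2.05 (adjusted p = 0.0634), Smpdl3b at −2.0002 (adjusted p = 0.0791), Rarg at −1.98 (adjusted p = 0.026), Tmem181b-ps at −1.54 (adjusted p = 0.0947) and Dyrk3 at −1.22 (adjusted p = 0.0544). More positive were Ccna2 at 1.16 (adjusted p = 0.0435), Nsd2 at 1.18 (adjusted p = 0.0947), Pcbp4 at 1.40 (adjusted p = 0.0998) and Gm16104 at 3.48 (adjusted p = 0.0925). Of those not described above, Dyrk3 had 5.61 and 5.43 FPKM in 2i and 17.6 and 18.9 in serum of P53-/- ESCs, and 28.7 and 30.2 FPKM in 2i and 42.2 and 40.4 in serum of WT ESCs, and Pgbd5 had 2.20 and 3.06 FPKM in 2i and 1.28 and 1.20 in serum of P53-/- ESCs, and 9.25 and 9.88 FPKM in 2i and 1.07 and 0.901 in serum of WT ESCs. Adam23, Dapk1, Id3 and Pvt1 passed under all 19 alternatives in which this test could be run, and the other 13 under 7 to 16 of them. The sizes depended on the pseudocount where a culture was near 0, from −5.24 at 0.01 to −2.05 at 1 for Adam23, from −4.09 to −1.73 for Dapk1 and from 6.65 to 1.12 for Gm16104. Groups of 2 libraries allow no test for a library that stands apart.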

How the results depend on the processing

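The counts of culture calls kept within 1.5 times of the reported ones under every alternative. In P53-/- ESCs they ran from 6637 to 8478 over 12 settings and from 6840 to 7312 with a library left out. In WT they ran from 6395 to 8047 and from 6301 to 6980, and the calls shared in direction from 5249 to 6297 and from 5346 to 5714. The 17 differences between genotypes depended on the settings. They were 57 with a pseudocount of 1, 40 when small RNA genes were left out of the fit, 36 with median-ratio scaling, 29 with quantile normalization, 31 with eBayes without a trend and 7 at an adjusted p under 0.05. With values centred by transcript length there were 31 and on chromosome medians 58, both chosen after seeing the data. They were 17 with a pseudocount of 0.01, 23 at a mean FPKM of at least 1 and 19 without a filter. With a library left out they ran from 9 to 49. There were 49 without WT 2i library 1, 48 without P53-/- serum library 1, 9 without WT serum library 2, 11 without WT serum library 1, and 10 without P53-/- 2i library 2 as well as without P53-/- serum library 2. The cause was not tested. The difference could not be fitted on the compared groups alone, which hold 1 genotype.

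Signs turned for some genes that were not called. Centred by transcript length, the P53-/- log2 difference was −0.078 for Anxa8, −0.18 for Cdkn1a and 0.038 for Etv5, and centred on chromosome medians it was 0.079 for Id2 and −0.12 for Rbl2, which had −0.040 with quantile normalization. With a library left out the ranges were −0.073 to 0.30 for Cdkn1a, −0.29 to 0.36 for Dnmt1, −0.37 to 0.099 for Id2 and −0.35 to 0.0024 for Id3. They were −0.94 to 0.13 for Rb1, −0.048 to 0.26 for Rbl2, −2.14 to 0.015 for Trp53 and −0.80 to 2.86 for Zscan4d. Trp53 and Zscan4d were not near 0 with all libraries, and some of these values passed the test: Trp53 at −2.14 (adjusted p = 0.0344 by limma) and −2.01 (0.0659), Zscan4d at 2.86 (0.0707) and Rb1 at −0.94 (0.0864). Sox2 and Nanog fell below the fold threshold with median-ratio scaling (−0.55 and −0.52), and Pou5f1 passed it (0.65), as it did without the second P53-/- 2i library (0.62) and without the second P53-/- serum library (0.68). Quantile normalization gave the same changes, with Sox2 at −0.516, Nanog at −0.522 and Pou5f1 at 0.658. On chromosome medians Sox2 was at −0.523, also below the fold threshold. No paired analysis was possible because the columns of the table carry no replicate number and no clone. Their labels thus do not tie a library of one culture to one of the other. Column order did go with some values: in both P53-/- cultures Trp53 was higher in the first library. The 2-cell-like markers summed higher in the second library, at 65.5 beside 7.02 FPKM in 2i and 16.1 beside 0.989 in serum. Whether pairing by column order would change the Trp53 and Tcstv3 results was not tested. With 2 libraries a group and depths estimated at 5200000 to 13200000 fragments, low genes and small differences are measured with little precision.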

Other observations

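Among genes of adhesion and guidance, 3 of 16 tested members of the cadherin and mesenchymal list were higher in P53-/- 2i ESCs and 8 lower. The tight junction gene Cldn7 had 16.4 and 10.2 FPKM in 2i and 2.76 and 1.39 in serum, while the E-cadherin gene Cdh1 had 48.5 and 47.6 FPKM in 2i and 90.8 and 70.0 in serum, a call lost without the first serum library (−0.54) and when centred by transcript length (−0.52), and the splicing factor gene Esrp1 had 0.333 and 0.674 FPKM in 2i and 6.35 and 3.70 in serum. Of 15 guidance genes, 6 were higher, with Slit2 at 3.71 and 4.72 FPKM in 2i and 0.236 and 0.232 in serum, and 6 were lower, with the ephrin receptor gene Epha1 at 0.376 and 0.0557 FPKM in 2i and 3.87 and 2.18 in serum. Of 12 genes of retinoic acid, 3 were higher, with the synthesis gene Aldh1a3 at 5.39 and 4.12 FPKM in 2i and 0.0465 and 0 in serum, and 5 were lower, with the receptor gene Rara at 3.83 and 1.46 FPKM in 2i and 15.2 and 12.9 in serum. Of 11 genes of iron handling, 4 were higher, with the iron oxidase gene Heph at 1.10 and 1.17 FPKM in 2i and 0.0398 and 0.0485 in serum, and 4 were lower, with the metalloreductase gene Steap3 at 1.58 and 2.004 FPKM in 2i and 6.38 and 5.88 in serum.

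Trophoblast markers were low, and of 7 tested 1 was higher, the keratin gene Krt7 at 2.39 and 1.94 FPKM in 2i and 0.108 and 0.0716 in serum, and 1 was lower. Of 7 streak and mesoderm genes, 3 were higher and 3 lower, with the homeobox gene Nkx1-2 at 4.08 and 2.38 FPKM in 2i and 0.263 and 0.639 in serum of P53-/- ESCs and 3.65 and 8.57 FPKM in 2i and 0 and 0 in serum of WT ESCs. Without the second P53-/- 2i library 1 streak and mesoderm gene was lower, and without the first P53-/- serum library 3 trophoblast markers were higher. Of 5 tested fibroblast markers, 3 were lower in 2i and 0 higher, with Mmp2 at 0 and 0 FPKM in 2i and 1.27 and 1.68 in serum.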
